A study of Mus musculus with 8 samples.

Results

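The 32 genes described here make or control the machinery that copies DNA in S phase of the cell cycle. They were taken from a list of names and are 32 of the 55492 genes in the tables of mouse melanoma cells. All 32 passed the filter on low counts, which 13531 genes passed in all. They were divided by role into the MCM helicase (6 genes), origin loading and helicase activation (4), the replication fork (6), nucleotide supply (3), E2F and cyclin E (4), repair and ubiquitin control (5), and chromatin and histone supply (4).

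RNA was sequenced from YUMM5.2, a melanoma line from C57BL/6J mice (written C57B/6J in the labels). Of the 8 libraries, 4 were labelled DMSO, the solvent control, and 4 were labelled 4-OI and itaconate-treated. The series describes the agent as permeable itaconate. In this field 4-OI stands for 4-octyl itaconate, an ester of a metabolite that activated macrophages make. Cells of both groups had been cultured for 20 h, with no other treatment named, and the sources used here do not give the dose. Every library came from this 1 line. The labels speak of separate experiments but not of separate cultures, so p-values measure only how these samples spread, and that spread may be technical. Total counts ranged from 22962963 to 31361677 per library, and the common biological coefficient of variation was 3.1%. On the first principal component of all genes tested, which held 46.5% of the variance, the DMSO libraries lay at -20.4 to -18.1 and the 4-OI libraries at 18.6 to 19.48.

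Of 8 melanocyte markers, Mitf alone was abundant enough to test, and it rose with 4-OI (log2 fold change 0.64). Sox10, Pmel, Tyr, Tyrp1, Dct, Mlana and S100b were at or near 0 in every library. The summed level of the 8 was 2.49 to 3.1 TPM, the length-corrected share of transcripts, with DMSO and 3.65 to 4.08 with 4-OI. None of 6 immune cell, 4 endothelial and 4 keratinocyte markers passed the filter. Of 6 fibroblast markers 4 passed, of which Pdgfrb, Dcn and Col1a1 fell and Pdgfra rose. Lum was at 0 and Thy1 at or near 0 in all libraries, and the summed level of the 6 was 55.98 to 58.24 TPM with DMSO and 48.13 to 50.13 with 4-OI. The part of these markers in the results below was not tested.

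Before S phase, origins of replication are licensed when ORC, CDC6 and CDT1 load the ring of MCM2 to MCM7 onto DNA, and CDC45 and the GINS complex later join that ring to form the active helicase. Most of the genes involved are transcribed periodically under E2F factors, which the retinoblastoma protein holds in check until cyclin D and cyclin E kinases phosphorylate it. Melanoma lines with a BRAF mutation are known for strong signalling into this G1 to S step. In RNA from a whole culture, fewer cells in S phase and less of a transcript in each cell cannot be told apart.

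Promoter windows from RefSeq (GRCm38.p6), reaching from 250 bases before to 50 bases after a RefSeq transcript start, were at hand for 25 of the 32 genes. By GENCODE gene positions, the windows of E2f1, Mcm7 and Cdc6 lay wholly inside the gene, so its outermost start was not covered. The E2f1 window ended at 154569676, where the gene begins at 154569892 on the minus strand. The windows of Fen1 and Mcm5 lay wholly before the gene and did not cover its GENCODE start. The Fen1 window reached down to 10204344, where the gene begins at 10204169 on the minus strand. The Mcm5 window ended at 75109558, where the gene begins at 75109569. The 25 windows were searched on both strands for the 8-letter E2F words TTTCCCGC, TTTCGCGC, TTTGCCGC and TTTGGCGC, for the same words without their first T, and for CCAAT. The 8-letter words occurred in 9 of the 25 windows (36.0%), against 495 of 12570 windows of tested genes (3.94%) and 744 of all 32851 windows (2.26%). The 7-letter words occurred in 15 of the 25 (60.0%), against 16.6% of the windows of tested genes. CCAAT was found in 16 of the 25 (64.0%) and in 38.2% of the windows of tested genes. Among 30 windows of mitosis genes, an 8-letter word was found in 1 (3.33%), a 7-letter word in 6 (20.0%) and CCAAT in 24 (80.0%). A match is a run of letters and not evidence of binding, words on opposite strands may overlap, and windows of 1 gene with several starts were counted separately in the totals.

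The 250 bases before the start are given here for 6 genes that span the results, 5 that fell with 4-OI and Pola1, which was not called. They read 5′ to 3′ on the strand of the gene, and capitals mark the 7-letter E2F words on either strand.
Mcm6 (chr1:128359706-128359955, minus strand): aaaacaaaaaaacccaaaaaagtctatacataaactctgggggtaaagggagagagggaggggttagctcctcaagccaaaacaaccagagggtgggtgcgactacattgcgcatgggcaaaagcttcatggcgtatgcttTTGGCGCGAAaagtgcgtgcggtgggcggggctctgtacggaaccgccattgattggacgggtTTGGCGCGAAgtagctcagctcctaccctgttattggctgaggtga
Tyms (chr5:30073626-30073875, minus strand): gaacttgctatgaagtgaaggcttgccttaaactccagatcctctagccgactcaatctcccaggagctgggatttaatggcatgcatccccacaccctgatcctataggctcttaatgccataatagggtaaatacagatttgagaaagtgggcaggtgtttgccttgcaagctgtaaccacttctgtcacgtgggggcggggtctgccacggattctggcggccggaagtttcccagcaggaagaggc
E2f8 (chr7:48881597-48881846, minus strand): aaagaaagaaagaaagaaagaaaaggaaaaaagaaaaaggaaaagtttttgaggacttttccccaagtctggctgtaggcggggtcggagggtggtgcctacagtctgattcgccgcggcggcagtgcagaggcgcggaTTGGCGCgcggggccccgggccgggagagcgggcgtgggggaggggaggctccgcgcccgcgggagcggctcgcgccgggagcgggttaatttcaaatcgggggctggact
Dtl (chr1:191575545-191575794, minus strand): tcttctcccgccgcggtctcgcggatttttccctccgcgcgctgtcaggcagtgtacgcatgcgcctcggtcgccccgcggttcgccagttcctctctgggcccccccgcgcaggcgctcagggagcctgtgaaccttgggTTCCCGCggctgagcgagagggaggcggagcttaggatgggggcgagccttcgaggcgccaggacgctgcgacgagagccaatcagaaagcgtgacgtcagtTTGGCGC
Uhrf1 (chr17:56303087-56303336, plus strand): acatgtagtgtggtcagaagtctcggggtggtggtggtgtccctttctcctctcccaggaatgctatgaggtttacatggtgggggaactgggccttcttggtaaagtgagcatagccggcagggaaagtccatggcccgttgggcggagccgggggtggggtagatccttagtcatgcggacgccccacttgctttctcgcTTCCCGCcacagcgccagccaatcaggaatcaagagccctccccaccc
Pola1 (chrX:93632156-93632405, minus strand): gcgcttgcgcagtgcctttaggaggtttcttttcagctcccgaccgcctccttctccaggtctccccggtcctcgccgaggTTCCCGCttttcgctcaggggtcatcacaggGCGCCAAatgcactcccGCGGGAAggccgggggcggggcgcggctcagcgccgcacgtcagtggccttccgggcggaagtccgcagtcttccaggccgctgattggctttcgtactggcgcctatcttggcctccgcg
Mcm6 carries the run TTGGCGCGAA at 109 and again at 46 bases before its start, each holding a TTGGCGC and, on the other strand, an overlapping TTCGCGC. E2f8 has 1 word, 111 bases before the start, Dtl has 2, the nearer one ending at the base before the start, and Uhrf1 has 1 at 48 bases. Tyms, which fell, has none in its window, and Pola1, which was not called, has 3 in the printed stretch. Of the 16 windows of genes that fell, 11 held a 7-letter word (68.8%), and of the 9 windows of genes not called, 4 did (44.4%), a difference that was not tested. The 9 include the windows of E2f1, without a word, and Mcm7, with words, and the 16 include that of Cdc6, with a word. These windows lay inside their genes. The 16 also include those of Mcm5, with words, and Fen1, without a word, which lay before their genes. The shares therefore do not describe the outermost starts alone.

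With 4-OI, 23 of the 32 genes fell, none rose and 9 were not called (edgeR's quasi-likelihood test, Benjamini-Hochberg adjusted p under 0.05 over all genes tested). Over all 13531 genes the same test called 19.6% lower and 19.3% higher. The 32 genes were chosen with earlier results of these data known, so setting them beside these shares is a description and not a test. In the authors' TPM values (transcript shares corrected for length), tested with limma, 9 of the 32 and 1620 of all 13531 genes were called lower. The falls were small: the median log2 fold change of the 32 genes was -0.13, where that of all genes tested was 0.0, and the range was -0.47 (E2f8) to 0.055 (Pcna). The estimate was below 0 in 30 of the 32. In 20 genes every 4-OI library lay below every DMSO library, a separation seen downward in 18.0% of all genes tested. None of the 32 changed by as much as 1.5-fold. Levels between libraries are given as CPM, counts relative to the library total after TMM scaling, and fold changes are those of the fit.

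**Figure D1:**
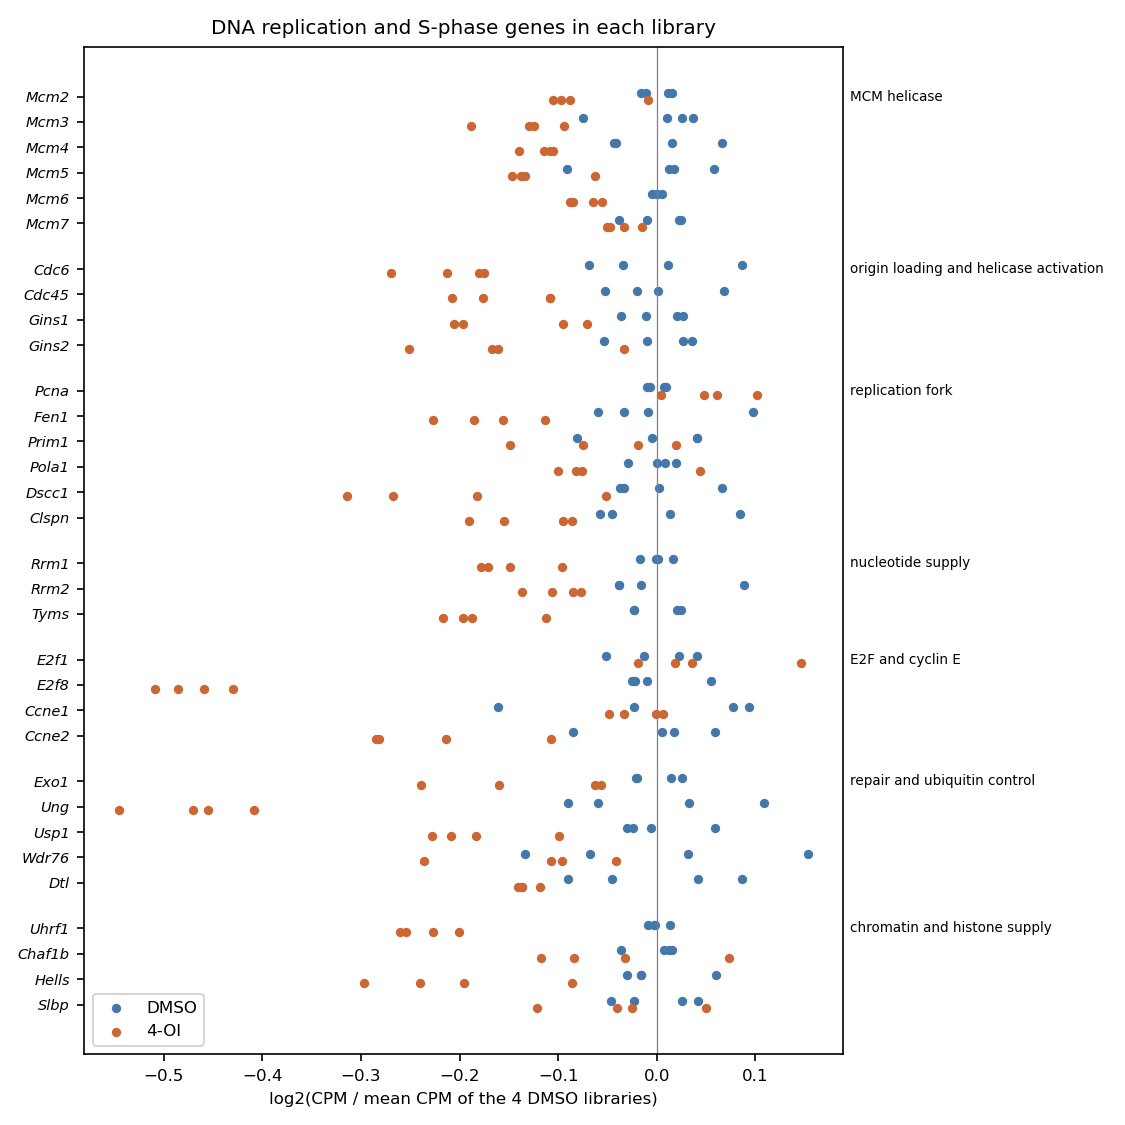
Each point is 1 library's CPM for 1 gene relative to the mean of the 4 DMSO libraries, on a log2 axis, with genes grouped by role. E2f8 and Ung stand farthest to the left, and the 4-OI points of Pcna and E2f1 lie at or to the right of 0 in most libraries.

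Among the MCM genes, whose products form the ring that unwinds DNA, 5 of 6 fell, at a median log2 change of -0.10. Mcm3 (GRCm38 chromosome 1, 20802968 to 20820312) had 174, 171, 161 and 173 CPM in DMSO replicates 1 to 4 and 155, 159, 155 and 149 CPM in the 4-OI replicates. All 4-OI values lay below all DMSO values, the closest being DMSO replicate 3. The means were 169.5 ± 5.88 and 154.5 ± 4.19 CPM (SD, n = 4 each), a fitted log2 difference of -0.14 ± 0.03 (SE) (edgeR adjusted p = 0.000722). Mcm5 (chromosome 8, 75109569 to 75128439) had 139, 134, 125 and 135 CPM with DMSO and 121, 127, 121 and 120 CPM with 4-OI. Its groups overlapped, since 4-OI replicate 2 lay above DMSO replicate 3. The means were 133.1 ± 5.76 and 122.5 ± 3.32 CPM (SD, n = 4 each), a fitted log2 difference of -0.12 ± 0.03 (SE) (edgeR adjusted p = 0.0036).

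Mcm4 fell from 212.8 ± 7.75 to 196.2 ± 2.08 CPM (SD, n = 4 each) and Mcm6 from 181.4 ± 0.497 to 172.4 ± 1.89 CPM, both without overlap of the groups. Mcm2 went from 176.1 ± 1.92 to 167.3 ± 5.22 CPM (edgeR adjusted p = 0.0255), with 4-OI replicate 2 level with the DMSO libraries. Its call ended when any 1 of DMSO replicates 1 and 2 or 4-OI replicates 1, 3 and 4 was left out (edgeR adjusted p = 0.0536 to 0.0888). Mcm7 had 186.1 ± 3.87 and 181.4 ± 2.07 CPM and was not called (log2 fold change -0.04, edgeR adjusted p = 0.231). Its locus also holds Ap4m1 and Cops6 on the opposite strand, which share 321 and 64 exon bases with it. With scaling by library totals 3 of the 6 genes fell, without a filter on low counts 3, and in the authors' TPM values, tested with limma, 0 of 6.

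All 4 genes of origin loading and helicase activation fell, at a median log2 change of -0.15. Cdc6 (chromosome 11, 98907801 to 98923940), the ATPase that loads the MCM ring, had 38.7, 34.8, 35.6 and 36.8 CPM with DMSO and 32.2, 32.3, 30.3 and 31.5 CPM with 4-OI. Every 4-OI library was below every DMSO library. The means were 36.48 ± 1.71 and 31.57 ± 0.939 CPM (SD, n = 4 each), 13.6% lower in the fit (edgeR adjusted p = 0.000543). Cdc45, the helicase partner that joins at origin firing, fell from 56.28 ± 2.00 to 50.74 ± 1.76 CPM, also without overlap (edgeR adjusted p = 0.00269). It shares 209 exon bases with Ufd1 on the opposite strand, which had 1260 to 1999 counts.

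Gins1 and Gins2 encode subunits of the GINS complex. Gins2 (chromosome 8, 120578633 to 120589304) had 41.0, 41.3, 38.8 and 40.0 CPM with DMSO and 39.3, 35.8, 33.8 and 36.0 CPM with 4-OI. The groups overlapped, as 4-OI replicate 1 was above DMSO replicate 3. The fit gave a log2 fold change of -0.15 ± 0.04 (SE, edgeR adjusted p = 0.00944), and in TPM values it was -0.11 (limma adjusted p = 0.535). Of its 4097 annotated exon bases, 2758 are shared with Gse1 on the opposite strand, which had 671 to 892 counts. The sources used here do not say whether strand was used in counting, so it is not known whether reads of the 2 genes were kept apart over the shared bases. Gins1 fell from 15.35 ± 0.312 to 13.92 ± 0.666 CPM (SD, n = 4 each, edgeR adjusted p = 0.0375). That call was lost when 1 of DMSO replicates 1, 2 and 4 or of 4-OI replicates 2 and 3 was left out (edgeR adjusted p = 0.0548 to 0.109), and neither DESeq2 (adjusted p = 0.16) nor limma on TPM values (adjusted p = 0.106) made it.

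At the replication fork 3 of 6 genes fell and 3 were not called, at a median log2 change of -0.09. Dscc1 (chromosome 15, 55076099 to 55090491), a subunit of the clamp loader that acts in sister chromatid cohesion, had 16.8, 16.4, 16.4 and 17.6 CPM with DMSO and 13.5, 14.0, 14.8 and 16.2 CPM with 4-OI. The groups did not overlap, but 4-OI replicate 4 came close to DMSO replicates 2 and 3. The fit gave a log2 fold change of -0.20 ± 0.06 (SE, edgeR adjusted p = 0.0107). Fen1 (chromosome 19, 10199132 to 10204169), the nuclease that trims flaps from Okazaki fragments, had 44.9, 40.3, 41.0 and 41.7 CPM with DMSO and 35.9, 37.7, 38.8 and 36.9 CPM with 4-OI. All 4-OI values were lower than all DMSO values, with DMSO replicate 1 standing above the others. The fit gave a log2 fold change of -0.17 ± 0.04 (SE, edgeR adjusted p = 0.00269), and -0.14 in TPM values (limma adjusted p = 0.0522). Gm10143 covers 1909 of its 2422 exon bases on the opposite strand, at 7 to 25 counts.

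Clspn, which encodes the checkpoint adaptor claspin, fell from 58.71 ± 2.66 to 53.61 ± 1.83 CPM (SD, n = 4 each, edgeR adjusted p = 0.00834), a call not made in TPM values (limma adjusted p = 0.231). Pcna, the sliding clamp that tethers polymerases, had 297, 301, 300 and 298 CPM with DMSO and 309, 300, 312 and 321 CPM with 4-OI. It was the most abundant of the 32 transcripts, and 3 of its 4-OI libraries were above all DMSO libraries. Its log2 fold change of 0.055 was not called (edgeR adjusted p = 0.083). It was called higher with scaling by library totals (0.07, edgeR adjusted p = 0.019) and without 4-OI replicate 2 (0.07, edgeR adjusted p = 0.0313). The pseudogene Pcna-ps2, which matches 781 of its bases at 99.2% identity, had 27 to 57 counts. Prim1, the primase, and Pola1, the catalytic subunit of polymerase alpha, were not called (log2 fold changes -0.055 and -0.05, edgeR adjusted p = 0.305 and 0.211). Pola1 was called lower without 4-OI replicate 4 (-0.09, edgeR adjusted p = 0.0139) and with a correction for GC content and length (-0.07, edgeR adjusted p = 0.031).

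All 3 genes of nucleotide supply fell, at a median log2 change of -0.15, and in each the groups were separate. Tyms (chromosome 5, 30058202 to 30073617), thymidylate synthase, had 73.6, 71.4, 71.5 and 73.9 CPM with DMSO and 67.2, 62.5, 63.8 and 63.4 CPM with 4-OI. The 4-OI replicate 1 was the highest of its group and still under every DMSO library. The means were 72.6 ± 1.33 and 64.19 ± 2.04 CPM (SD, n = 4 each), 11.7% lower in the fit (edgeR adjusted p = 0.000112). Rrm1 (chromosome 7, 102441695 to 102469771), the large subunit of ribonucleotide reductase, had 242, 240, 240 and 237 CPM with DMSO and 224, 213, 212 and 216 CPM with 4-OI. The groups were apart, with 4-OI replicate 1 the nearest to DMSO. The means were 239.6 ± 2.26 and 216.3 ± 5.62 CPM (SD, n = 4 each), a fitted log2 difference of -0.15 (edgeR adjusted p = 5.51e-05). Rrm2, the small subunit that S phase cells make anew, fell from 144.7 ± 6.17 to 134.9 ± 2.5 CPM (SD, n = 4 each, edgeR adjusted p = 0.00947). The calls of Tyms and Rrm1 held in all 17 alternatives, and that of Rrm2 in all but the 2 on TPM values. The longest Tyms transcript matches 355 bases of Reep3, 357 of Map3k2 and 358 of Wdr59, at 95.5% to 97.7% identity. Reep3 had 2415 to 3603 counts, Map3k2 2049 to 3093 and Wdr59 735 to 1090, where Tyms had 1629 to 2306. The part of these matches in the Tyms counts was not tested.

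In the E2F and cyclin E group 2 of 4 genes fell and 2 were not called, at a median log2 change of -0.12. E2f8 (chromosome 7, 48866429 to 48881596), an atypical E2F that represses E2F targets late in S phase, had 30.5, 28.9, 28.8 and 29.1 CPM with DMSO and 21.8, 20.6, 21.0 and 21.3 CPM with 4-OI. The groups stood far apart relative to their spread. The means were 29.34 ± 0.779 and 21.17 ± 0.50 CPM (SD, n = 4 each), a fitted log2 difference of -0.47 ± 0.04 (SE) (edgeR adjusted p = 3.67e-08), or 27.9% lower. E2f1, the activator that drives entry into S phase, had 72.4, 73.3, 70.6 and 68.8 CPM with DMSO and 72.2, 73.0, 78.9 and 70.3 CPM with 4-OI. Those values overlapped, and the log2 fold change of 0.05 was not called (edgeR adjusted p = 0.312).

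Ccne2 and Ccne1 encode the cyclin E proteins that activate CDK2. Ccne2 (chromosome 4, 11191351 to 11204779) had 33.1, 32.8, 34.1 and 30.8 CPM with DMSO and 26.9, 26.9, 28.2 and 30.4 CPM with 4-OI. There was no overlap, although 4-OI replicate 4 was only just below DMSO replicate 4. The fit gave a log2 fold change of -0.22 ± 0.05 (SE, edgeR adjusted p = 0.00127), and -0.14 in TPM values (limma adjusted p = 0.158). It shares 609 exon bases with Ints8 on the opposite strand, which had 1385 to 2104 counts. Ccne1 had 28.94 ± 2.29 and 28.56 ± 0.513 CPM (SD, n = 4 each) and was not called (log2 fold change -0.02, edgeR adjusted p = 0.754).

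**Figure D2:**
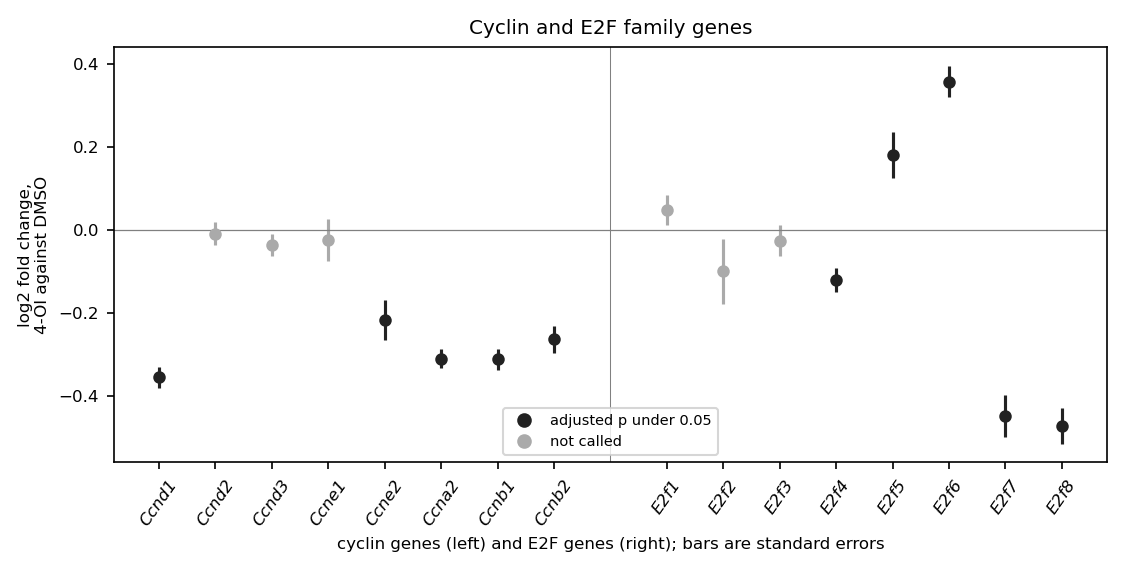
Points are log2 fold changes of cyclin genes (left) and E2F genes (right), 4-OI against DMSO, with standard errors as bars and dark points for an adjusted p under 0.05. Ccne2, Ccna2, E2f7 and E2f8 lie below 0, Ccne1 and E2f1 near 0, and E2f5 and E2f6 above 0.

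In the plot of cyclins and E2F genes, cyclins of other phases are shown beside cyclin E. Ccnd1, the cyclin that links growth signals to the retinoblastoma protein, had a log2 fold change of -0.35, while the other D cyclins, Ccnd2 and Ccnd3, were not called (-0.008 and -0.04, edgeR adjusted p = 0.836 and 0.308). Ccna2, the cyclin of S phase and G2, had -0.31. The mitotic cyclins Ccnb1 and Ccnb2 had -0.31 and -0.26. E2f7, the other atypical repressor, had -0.45, while E2f6 had 0.36 and E2f5 0.18. E2f4 had -0.12, and E2f2 and E2f3 were not called.

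Among genes of repair and ubiquitin control 4 of 5 fell, at a median log2 change of -0.13. Ung (chromosome 5, 114130386 to 114139323), the glycosylase that removes uracil from DNA, had 12.5, 11.8, 10.9 and 11.1 CPM with DMSO and 8.73, 7.93, 8.45 and 8.36 CPM with 4-OI. No 4-OI library reached the lowest DMSO library. The means were 11.58 ± 0.729 and 8.37 ± 0.328 CPM (SD, n = 4 each), a fitted log2 difference of -0.47 ± 0.06 (SE) (edgeR adjusted p = 7.03e-06). Usp1 (chromosome 4, 98923810 to 98935543), the protease that takes ubiquitin off PCNA and FANCD2, had 165, 155, 155 and 157 CPM with DMSO and 135, 137, 139 and 147 CPM with 4-OI. Again the groups were separate, with DMSO replicate 1 highest of all. The fit gave a log2 fold change of -0.18 ± 0.03 (SE, edgeR adjusted p = 7.04e-05).

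Dtl, the receptor that directs CUL4 ligase to CDT1 on DNA-bound PCNA, fell from 52.08 ± 2.89 to 47.49 ± 0.321 CPM (SD, n = 4 each, edgeR adjusted p = 0.00981), a call not made in TPM values (limma adjusted p = 0.135). Exo1, an exonuclease of mismatch repair and end resection, fell from 31.56 ± 0.520 to 28.89 ± 1.72 CPM (edgeR adjusted p = 0.0302). That call was lost when 1 of DMSO replicates 2 and 4 or of 4-OI replicates 3 and 4 was left out (edgeR adjusted p = 0.067 to 0.108) and in DESeq2 (adjusted p = 0.0757). Wdr76, a WD repeat protein, was not called (log2 fold change -0.11, edgeR adjusted p = 0.158).

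In chromatin and histone supply 2 of 4 genes fell, at a median log2 change of -0.12. Uhrf1 (chromosome 17, 56303321 to 56323486), which brings the maintenance methyltransferase to newly copied DNA, had 173, 173, 172 and 174 CPM with DMSO and 145, 144, 148 and 150 CPM with 4-OI. The groups were separated by far more than their spread. The means were 172.9 ± 1.13 and 146.8 ± 2.81 CPM (SD, n = 4 each), 15.0% lower in the fit (edgeR adjusted p = 1.06e-07). Hells (chromosome 19, 38930915 to 38971051), a remodeller needed for DNA methylation, had 136, 129, 127 and 129 CPM with DMSO and 110, 106, 114 and 123 CPM with 4-OI. The highest 4-OI value, that of replicate 4, was under the lowest DMSO value. The fit gave a log2 fold change of -0.20 ± 0.04 (SE, edgeR adjusted p = 0.000157). In TPM values neither was called: Uhrf1 had -0.12 (limma adjusted p = 0.164) and Hells -0.12 (limma adjusted p = 0.26). Chaf1b, a subunit of the histone chaperone CAF-1, and Slbp, which binds histone mRNA, were not called (log2 fold changes -0.04 and -0.03, edgeR adjusted p = 0.535 and 0.483).

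**Figure D3:**
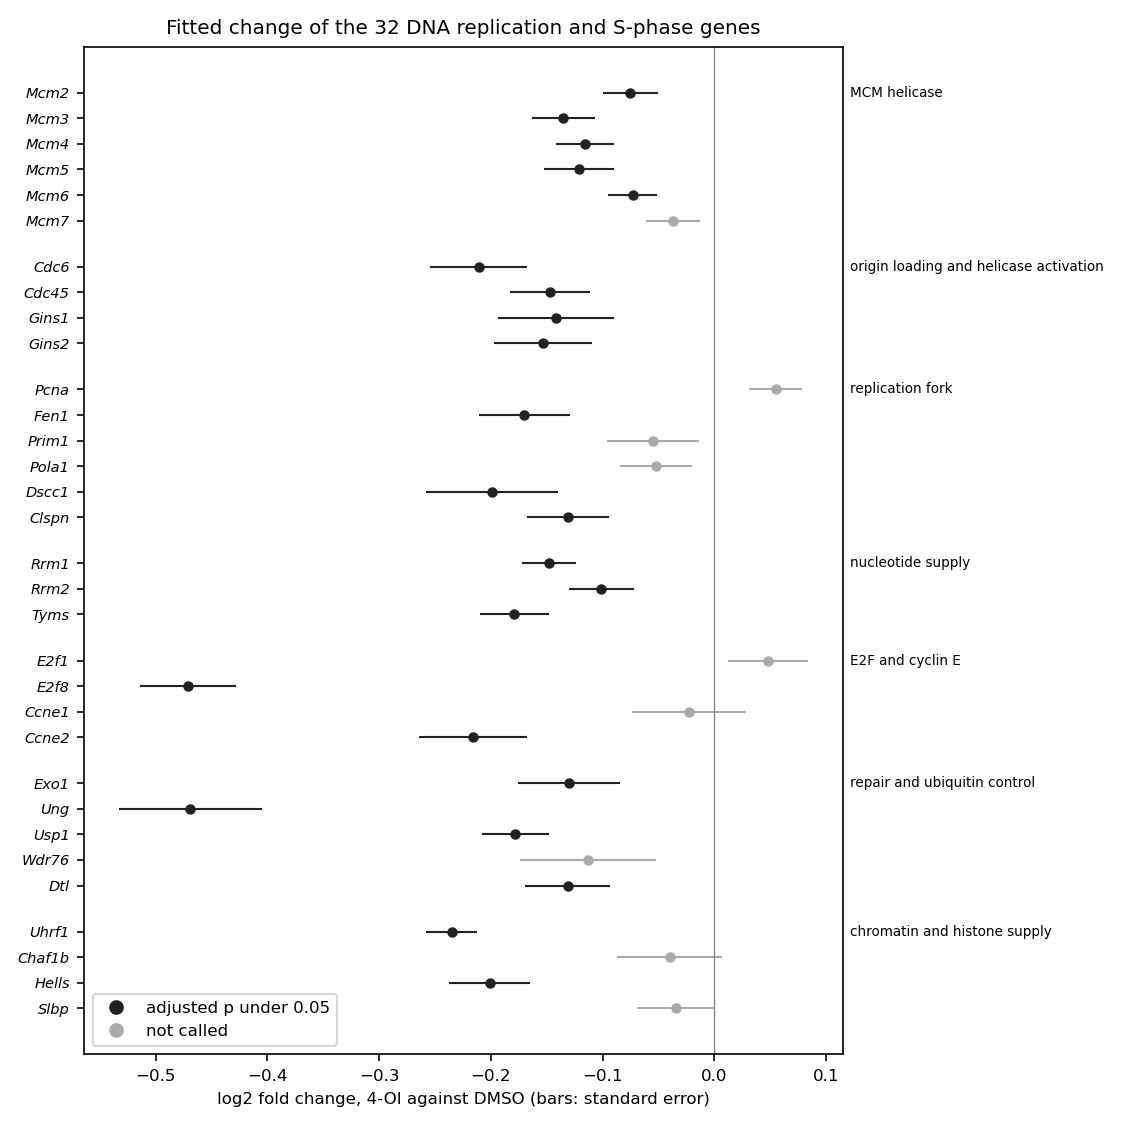
Log2 fold change of each of the 32 genes, 4-OI against DMSO, by role, with standard errors as bars and dark points for an adjusted p under 0.05. The 2 values near -0.47 are E2f8 and Ung, and the 2 values above 0 are Pcna and E2f1, neither called.

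The difference was of like size in each treated library. Relative to the DMSO mean, the median of the 32 genes was -0.12, -0.11, -0.14 and -0.11 on the log2 scale in 4-OI replicates 1 to 4, with 30, 29, 30 and 27 genes below that mean. In DMSO replicates 1 to 4 it was 0.025, -0.001, -0.025 and -0.006, with 7, 16, 24 and 18 genes below. DMSO replicate 1 was the highest of all 8 libraries in 16 of the 32 genes. Without it 21 genes fell, and the median log2 fold change was -0.12. Leaving out other libraries gave 20 to 23 genes lower.

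Levels between genes were compared in TPM, which takes transcript length into account. With DMSO, Pcna led with 337.9 ± 4.18 TPM (SD, n = 4), followed by Mcm7 with 145.3 ± 7.27 and Tyms with 139.3 ± 3.02 TPM. Usp1, Rrm1, Rrm2 and Mcm6 came next at 110.2 to 99.8 TPM, and E2f8 (12.1), Ung (8.83) and Wdr76 (8.40) were lowest. Of the 31 neighbouring pairs in that order, 18 overlapped in their DMSO values and cannot be ranked beyond their spread. The 6 MCM genes summed to 554.1 to 597.0 TPM with DMSO and 541.1 to 557.8 TPM with 4-OI, ranges that overlap. The 3 nucleotide supply genes summed to 343.0 to 367.8 and 313.5 to 324.5 TPM, which do not.

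**Figure D4:**
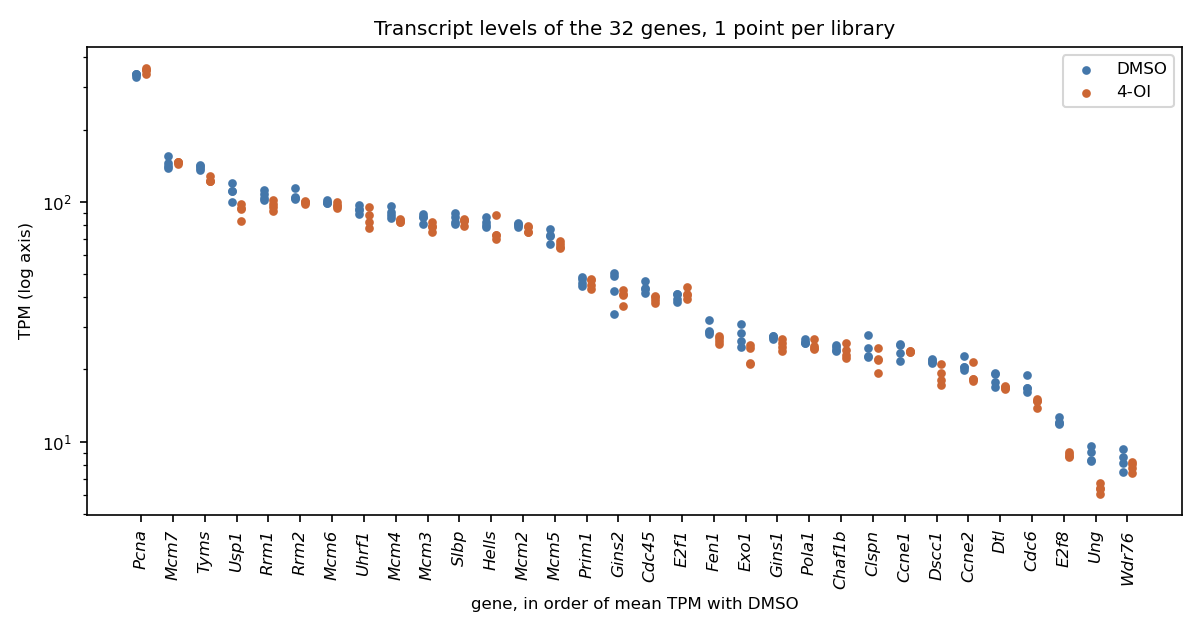
Points are TPM values of single libraries on a log axis, with the 32 genes in order of their mean with DMSO. Levels span from Pcna at 337.9 TPM to Wdr76 at 8.40 TPM, and the groups lie close together except for genes such as E2f8 and Ung.

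Whether genes of 1 complex or family kept their proportions was examined as log2 ratios within each library, for 19 pairs chosen after the values had been seen: all 15 pairs of MCM genes, and Ccne2 to Ccne1, E2f8 to E2f1, Rrm2 to Rrm1 and Gins2 to Gins1. The ratio of E2f8 to E2f1 was lower with 4-OI by 0.516 on the log2 scale (-1.28 ± 0.05 and -1.80 ± 0.09, SD, n = 4 each), and that of Mcm3 to Mcm7 by 0.097. Both reached a two-sided exact permutation p of 0.0286, the smallest that 4 against 4 libraries allow. After Benjamini-Hochberg adjustment over the 19 pairs the smallest exact permutation p was 0.271. With so few libraries no ratio could pass that adjustment unless most of the pairs reached the smallest p, so it does not show that proportions were kept. The ratio of Ccne2 to Ccne1 went from 0.18 ± 0.17 to -0.03 ± 0.07 (SD, n = 4 each, exact permutation p = 0.0571), and that of Rrm2 to Rrm1 from -0.73 ± 0.05 to -0.68 ± 0.06 (exact permutation p = 0.4).

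Further genes of the same steps gave both rises and falls, where of all genes tested 19.6% fell and 19.3% rose. Of 161 such genes of replication, nucleotide supply, G1 to S control, S-phase repair and chromatin assembly, 54 fell (33.5%), 16 rose and 91 were not called, at a median log2 change of -0.07. In origin and helicase genes 4 of 22 fell (18.2%, beside 19.6% of all genes tested) and 1 rose. Gmnn, the inhibitor of CDT1, had a log2 fold change of -0.24, Ticrr, which acts in helicase activation, of -0.27, and the fork protein Wdhd1 of -0.23. In fork genes 8 of 30 fell (26.7%) and 2 rose. Pole, the catalytic subunit of polymerase epsilon, was at -0.18, its partner Pole2 at -0.15 and the fork protection factor Timeless at -0.24. The call of Pole2 was lost when 1 of DMSO replicates 1 and 2 or of 4-OI replicates 1, 2 and 4 was left out (edgeR adjusted p = 0.0562 to 0.139), with the replicate block (0.0528), and with DESeq2 (adjusted p = 0.0806). Neither was called in TPM values (limma adjusted p = 0.357 for Pole and 0.128 for Pole2).

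In nucleotide supply 12 of 29 further genes fell and 4 rose. Ctps and Ctps2, which both encode CTP synthases, had -0.36 and 0.40, and Paics of purine synthesis had 0.31. In E2F, RB and G1 to S genes 13 of 30 fell and 5 rose, with E2f7 at -0.45 and the CDK4 and CDK6 inhibitors Cdkn2b at 0.37 and Cdkn2d at -0.38. In S-phase repair and checkpoint genes 6 of 33 fell (18.2%, again beside 19.6% of all genes tested) and 3 rose. In chromatin assembly 11 of 17 fell and 1 rose, with the histone chaperones Asf1a at 0.36 and Asf1b at -0.25 and the lamin Lmnb1 at -0.385. In TPM values Asf1b had -0.09 and was not called (limma adjusted p = 0.686).

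Of 32 mitosis genes 31 fell, and their median log2 fold change was -0.25 beside -0.13 for the S-phase genes. The marker of cycling cells Mki67 had a log2 fold change of -0.47, the spindle motor Kif11 of -0.40 and the ubiquitin enzyme Ube2c of -0.41. In the 4-OI replicates 1 to 4 the median of the mitosis genes relative to the DMSO mean was -0.25, -0.24, -0.25 and -0.26, below that of the S-phase genes in each library. The difference between the lists was described and not tested.

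**Figure D5:**
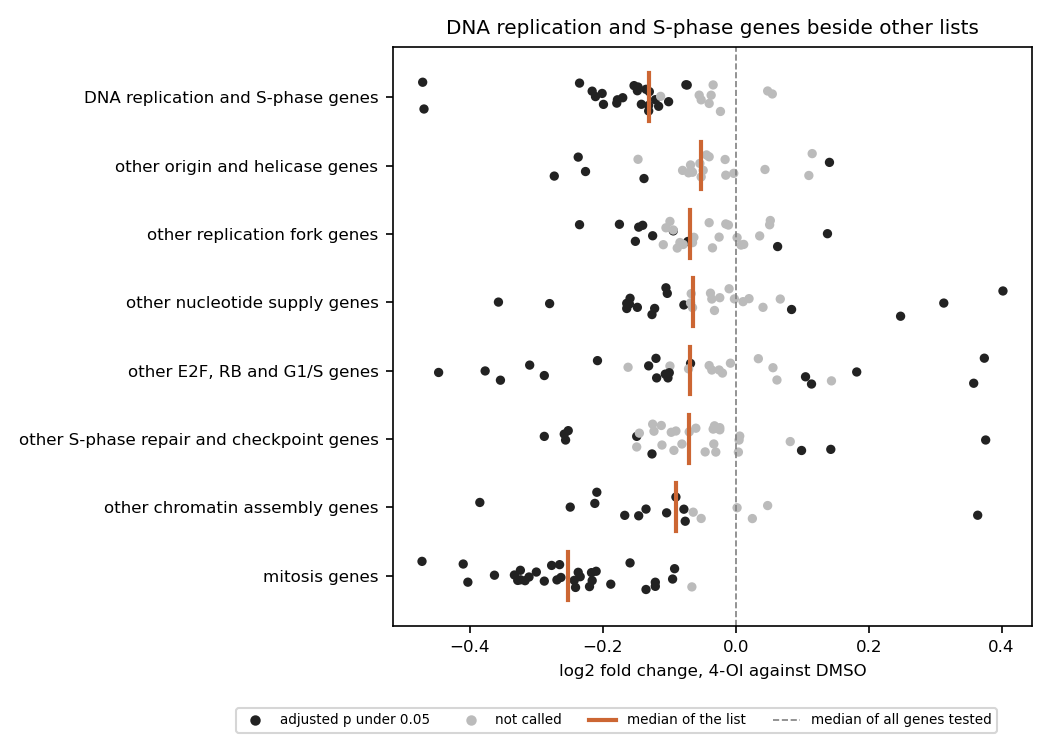
Each point is 1 gene's log2 fold change, 4-OI against DMSO, by list, with dark points for an adjusted p under 0.05, an orange bar at each median and a dashed line at the median of all genes tested. The S-phase genes centre at -0.13, the 6 lists of other genes at -0.09 to -0.05 and the mitosis genes at -0.25.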

How the data were processed

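RNA from 8 libraries, 4 labelled DMSO and 4 labelled 4-OI, was measured by paired-end sequencing of polyA RNA, per the labels' protocols. The submitters' processing notes name RSEM 1.3.3, STAR 2.7.8a, cutadapt 2.3, MultiQC 1.7, FastQC 0.11.8 and build GRCm38, without saying what each did. The sources used here do not name the annotation release or say whether counting used strand. The authors deposited RSEM's expected counts for each gene (whole numbers here), and TPM, a share of transcripts that takes length into account. Their FPKM table was not used. Group and replicate came from each title, and table columns were matched by description.

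The deposited expected counts were tested with edgeR 4.0.16 in R 4.3.3, using filterByExpr on the group (minimum count 10), TMM scaling and, with no covariate, the quasi-likelihood F test (two-sided) of the 4-OI against the DMSO libraries. Calls used a Benjamini-Hochberg adjusted p under 0.05 over all 13531 genes tested. The 32 genes and the other lists were chosen with earlier results of these data known. Every one of the 32 is named, those given in full being the 2 of each role with the largest absolute log2 fold change, and from each other list the 3 called genes with the largest, of which some are not reported here. Pcna, E2f1, the cyclins and the E2F genes were added after their values were seen. H2afz was matched by its gene identifier.

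Alternatives were DESeq2's size factors, library totals, DESeq2 1.42.0, no filter, a GC and length correction, the replicate number as a block, each library left out, and limma 3.58.1 on log2(TPM + 1) and log2(TPM + 0.1). Gene positions are those of GENCODE M21 on GRCm38. Transcripts sharing at least 200 bases at 95% identity were found with blastn 2.17.0. Within a group, any pair of libraries had a chi-square of 1.9 to 4.79 per degree of freedom, above sampling noise, and each counted once. The procedure was also run on simulated counts drawn with these libraries' own means and dispersions, and no result here rests on that run.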

Additional observations from a re-analysis of the deposited data

Results flagged for a closer look

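For each of the 32 genes and both groups, the highest and the lowest library were compared with the other 3 of the group by Dixon's test at its 95% critical value. This picked out 6 of 64 groups, where chance picks about 1 in 20. In the 4-OI group, replicate 2 was high for Mcm2, with 175.0 CPM against 163.8 to 165.7 in the others, and for Mcm5, with 127.5 CPM against 120.3 to 121.3. Replicate 4 was high for Pola1, with 98.44 CPM against 89.09 to 90.55. In the DMSO group, replicate 1 was high for Rrm2, with 153.8 CPM against 140.9 to 143.1, and for Hells, with 135.7 CPM against 127.4 to 128.7, while replicate 2 was low for Chaf1b, with 27.14 CPM against 27.99 to 28.15.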

How the results depend on the processing

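Of the 23 calls, 8 held in all 17 alternatives: Cdc6, Cdc45, Dscc1, Rrm1, Tyms, E2f8, Ung and Usp1. The number of the 32 genes called lower was 23 with DESeq2's size factors, 19 with library totals and 19 without a filter (both of these lost Mcm2, Mcm6, Gins1 and Exo1), 21 with DESeq2 (Gins1 and Exo1 lost), 24 with the GC and length correction and 20 to 23 with 1 library left out. With limma on TPM values 9 were called lower at either pseudocount, and of all genes 1620 (pseudocount 1) and 1615 (0.1); the cause was not tested. By role, TPM values left 0 lower in the MCM helicase, 2 in origin loading, 1 at the fork, 1 in E2F and cyclin E and 0 in chromatin supply, at both pseudocounts. The MCM helicase had 3 lower with library totals and 3 without a filter. Genes called higher numbered 1, Pcna, with library totals and without 4-OI replicate 2, so leaving out 1 library gave 0 to 1. Mcm7 had a log2 fold change of 0.006 in both TPM fits, and Ccne1 ranged from -0.071 to 0.007 with 1 library left out (0.007 without DMSO replicate 1, 0.005 without DMSO replicate 4). Scaling by library totals moved the median of all genes to 0.018, and the share of higher among called genes ranged from 45.0% to 56.5%. Libraries with the same replicate number did not deviate together (correlations of 0.069, 0.07, -0.014 and -0.016), and only those numbered 1 and 2 correlated best with their own number. With the replicate block 23 genes were called lower, and 24 with the block and the GC and length correction. Depth may limit genes with few counts, and its part in these calls was not tested. Ung had the fewest counts of the 32, 224 to 347 per library. Its log2 fold change was -0.47, and its call held in all 17 alternatives. Gins1, at -0.14, had 341 to 486 counts, and its call held in 7 of the 17. Mcm2, at -0.075, had 3970 to 5459 counts, and its call held in 8 of the 17.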

Other observations

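Beyond the 32 genes, some related genes were called in opposite directions. These pairs were chosen after their values were seen and are given as values only. Ctps fell from 212.7 ± 3.65 to 166.2 ± 2.90 CPM (SD, n = 4 each), while Ctps2 rose from 30.43 ± 0.450 to 40.23 ± 1.17 CPM, and neither gene's groups overlapped. Rrm2b, the ribonucleotide reductase subunit known to be available outside S phase, rose with a fitted log2 difference of 0.25 (edgeR adjusted p = 0.000105), where Rrm2 had -0.10. Asf1b fell from 44.21 ± 1.55 to 37.23 ± 0.797 CPM and Asf1a rose from 27.26 ± 0.475 to 35.09 ± 0.368 CPM. The fall of Asf1b was not called in TPM values (limma adjusted p = 0.686). Of the enzymes that supply dTTP and keep uracil out of DNA, Tk1 changed by -0.28 (edgeR adjusted p = 6.95e-08) and Dut by -0.16 (edgeR adjusted p = 3.6e-05) on the log2 scale, beside -0.18 for Tyms and -0.47 for Ung.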
